A study of Saccharomyces pastorianus with 12 samples.

Results

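The ATG genes are the autophagy-related genes of yeast, and they are described here over a production-scale lager beer fermentation. They were taken as every probe row whose annotated gene symbol is ATG followed by a number, which gave 35 genes with 1 probe each, of 6051 features in all (5490 named genes and the unnamed probes). The yeast was the lager brewing yeast Saccharomyces pastorianus, also called S. carlsbergensis, a hybrid with an S. cerevisiae parent, and total RNA was measured on 1 array at each of 0, 1, 24, 48, 72, 96, 120, 144, 168, 192, 240 and 264 h. All 12 samples came from the same kind of fermentation, and no strain, treatment or separate control is named for any of them. Whether they came from a single fermentation vessel is not given in the sources used here, so the p-values speak for these samples. Gene names follow S. cerevisiae, and a copy from the other parent of the hybrid was not told apart from the S. cerevisiae copy. ATG6 and ATG24 are on the array as VPS30 and SNX4 and so fall outside the rule, and ATG13 was not analysed here.

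Autophagy carries cytoplasm to the vacuole for breakdown. A double membrane grows around the cargo, closes to an autophagosome and fuses with the vacuole, and the released building blocks are used again. In S. cerevisiae it is low in rich medium and is induced when nitrogen or carbon runs short, and ATG8 and several other ATG genes are known to be induced at the level of transcription in nitrogen starvation. The Atg1 kinase and its scaffold start the process, a lipid kinase complex marks the membrane, Atg9 vesicles supply lipid, and a pair of ubiquitin-like systems couple Atg8 to that membrane. Receptors choose cargo for selective forms, among them the Cvt (cytoplasm-to-vacuole targeting) route, which delivers vacuolar enzymes in growing cells.

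A level below is a gene's log2 intensity minus its array's median, a relative share of the sample's RNA, so that RNA per cell and numbers of cells cannot be told apart in it. Arrays as deposited differed in scale, with medians from 762 at 168 h to 10142 at 96 h, and in spread, with a standard deviation from 0.67 log2 units at 240 h to 1.56 at 1 h. Background was not measured, so a signal below the 5th percentile of its array is treated as dim. By that cut about 5% of all values on each array are dim, and a value that is not dim need not be above background. 24 of the 35 ATG genes were never dim, and 21 of their 420 values were, about the same share, 7 of them in ATG17 and 3 in ATG29. With no replicate of any time, neighbouring times were pooled into windows: 0 and 1 h (early, n = 2), 24 to 72 h (active, n = 3), 96 to 144 h (mid, n = 3) and 168 to 264 h (late, n = 4). Within a window, array error and change over time cannot be told apart. The comparisons share arrays, so they are not independent of each other.

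ATG8, which encodes the ubiquitin-like protein of the autophagosome membrane, had the largest difference of the 35 genes between the active and the late window, 2.55-fold higher late. ATG42, a vacuolar carboxypeptidase gene, was 2.11-fold higher and ATG7, the gene of the activating enzyme of both conjugation systems, 2.06-fold lower. None of these passed the test: in limma with Benjamini-Hochberg adjustment over all features, 0 of the 35 ATG genes passed in either direction in any of the 4 window comparisons. From the active to the late window 0% of all features passed upward and 0.0826% downward, and in the other 3 comparisons (early to active, active to mid, mid to late) 0% passed in either direction. At an unadjusted p under 0.05, 3 ATG genes were higher late and 0 lower, against 374 higher and 525 lower of the 6051 features. The 3 were ATG8, ATG42 and ATG18. From the active to the mid window ATG8 and ATG42 reached that unadjusted level, both higher, against 171 features higher and 255 lower. From the early to the active window 0 ATG genes did, against 97 and 74 features, and from the mid to the late window 0, against 27 and 68.

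As a group, 25 of the 35 ATG genes were higher late than in the active window and 10 lower, with a median difference of 0.44 log2 units against 0.04 over all features. After quantile normalization 20 were higher and 15 lower, and the median was 0.27 against 0.03. With the 24 h array left out the median of the ATG genes was 0.10, and it was 0.20 with 264 h left out. The array spread moved in the same comparison, from 1.48, 1.23 and 0.99 log2 units at 24, 48 and 72 h to 1.27, 0.88, 0.67 and 0.86 at 168, 192, 240 and 264 h. With the arrays scaled to equal spread (equal median absolute deviations) the median of the ATG genes was 0.26 against 0.02 over all features. The windows did not overlap for 1 ATG gene that was higher late, ATG42, or 2.86% of the 35 against 5.19% of all features, and for 0 that were lower, against 7.35%.

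**Figure D1:**
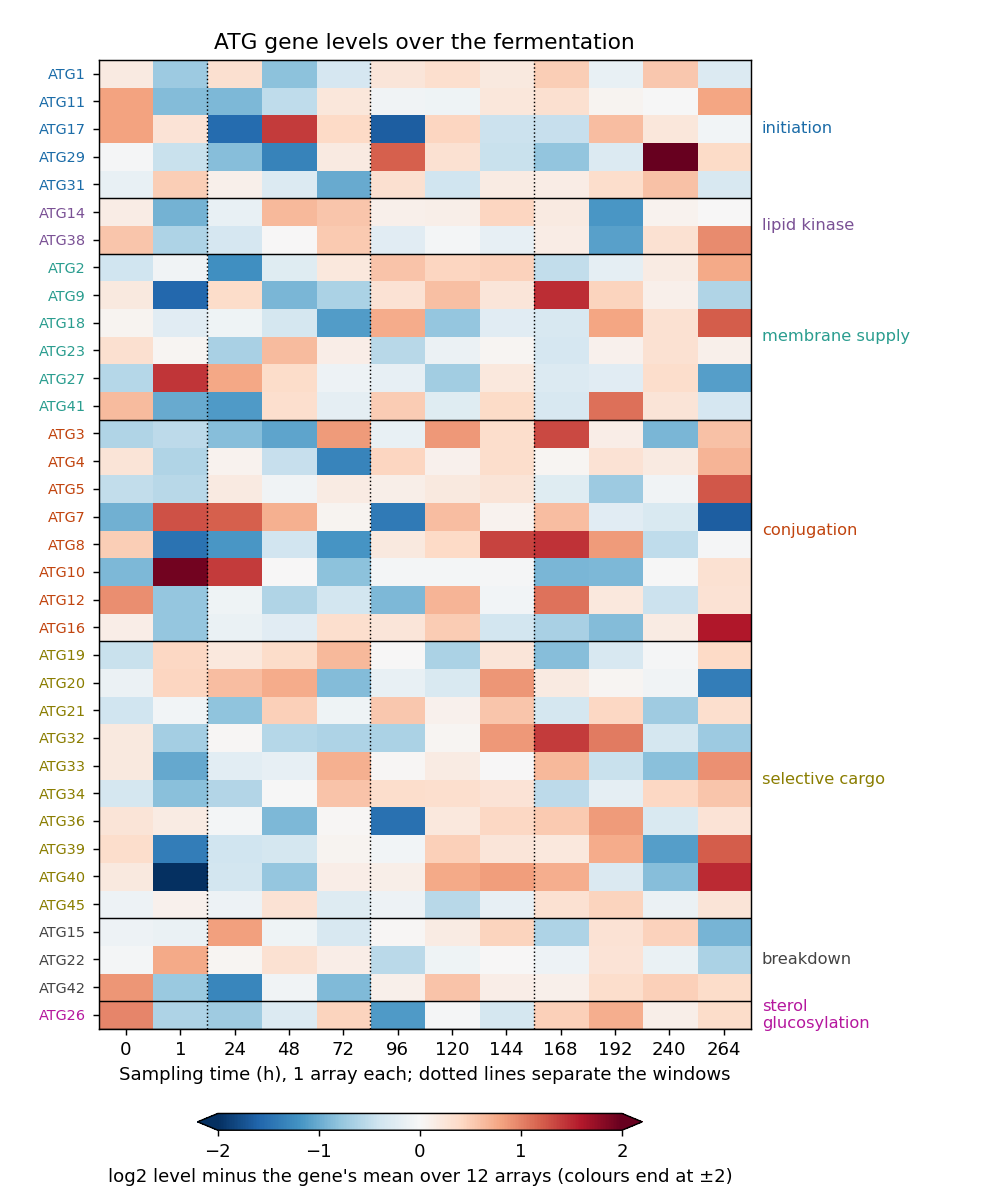
Levels of the 35 ATG genes (rows, grouped by role) on the 12 arrays (columns, sampling time in h), each shown as the log2 level minus the gene's own mean over the 12 arrays. ATG8 and ATG32 reach their highest levels at 168 h, ATG16 and ATG40 theirs at 264 h, and ATG10 stands highest at 1 h.

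The conjugation genes held both the largest positive and the largest negative difference from the active to the late window. ATG8 stood at 1.06 and -0.91 at 0 and 1 h, at -0.61, 0.18 and -0.62 at 24, 48 and 72 h, at 0.75, 0.95 and 1.91 at 96, 120 and 144 h, and at 2.01, 1.42, 0.05 and 0.53 at 168, 192, 240 and 264 h. It was thus highest at 144 and 168 h, high also in the 0 h sample, and low from 1 to 72 h. The active window averaged -0.35 ± 0.46 (SD, n = 3) and the late window 1.00 ± 0.88 (n = 4), a difference of 1.35 (SE 0.56, 95% interval 0.17 to 2.53; limma adjusted p = 0.274). The windows overlapped, as the 240 h value lay below the 48 h value. They overlapped after quantile normalization too, where the difference was 1.30. The mid window averaged 1.204 ± 0.62 (n = 3), and all 3 of its arrays were above the 3 active ones, 2.94-fold higher on average (difference 1.55, SE 0.60; limma adjusted p = 0.687).

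ATG7 ran the other way. Its levels were -0.78 at 0 h and 1.45 at 1 h, then 1.37, 0.89 and 0.22 at 24, 48 and 72 h, -1.23, 0.79 and 0.24 at 96, 120 and 144 h, and 0.79, -0.05, -0.13 and -1.47 at 168, 192, 240 and 264 h. It was highest at 1 and 24 h and lowest at 96 and 264 h, and the active and late windows overlapped. The late minus active difference was -1.04 (SE 0.63; limma adjusted p = 0.466), and it was -0.63 without the 264 h array, where the signal was dim. Mid minus active it was -0.89, and -0.31 without 96 h.

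ATG4 encodes the protease that trims Atg8 before coupling and frees it afterwards. It stood at 0.75, 0.22 and -0.63 at 24, 48 and 72 h and at 1.12, 0.77 and 1.03 at 96, 120 and 144 h, so that every mid value was above every active one. That difference was 0.86 (SE 0.44; limma adjusted p = 0.688), or 0.49 without 72 h. The late arrays lay between 0.73 and 1.36, a difference of 0.87 from the active window (0.50 without 72 h). ATG3, the gene of the enzyme that passes Atg8 to its lipid, differed by 0.63 late against active, but its 3 active values of 0.29, 0.09 and 2.01 were far apart and the difference ran from 0.28 to 1.24 with single arrays left out.

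The Atg12 branch, which helps place Atg8, had no common course. ATG10, the gene of the enzyme that joins Atg12 to Atg5, was highest at 1 and 24 h, at 2.81 and 2.28, and lay between -0.03 and 1.19 on every other array. Its late minus active difference of -0.57 had no stable sign, being 0.03 without 24 h, and it was -0.07 after quantile normalization. ATG12 differed by 0.64 (0.38 without 168 h, and 0.40 after quantile normalization). ATG5 and ATG16, which encode the partners of Atg12, each differed by less than 0.1 in either direction, while both stood highest at 264 h, at 1.06 and 1.44. Of the 8 conjugation genes 5 were higher and 3 lower late, with a median difference of 0.35, and 0 passed.

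**Figure D2:**
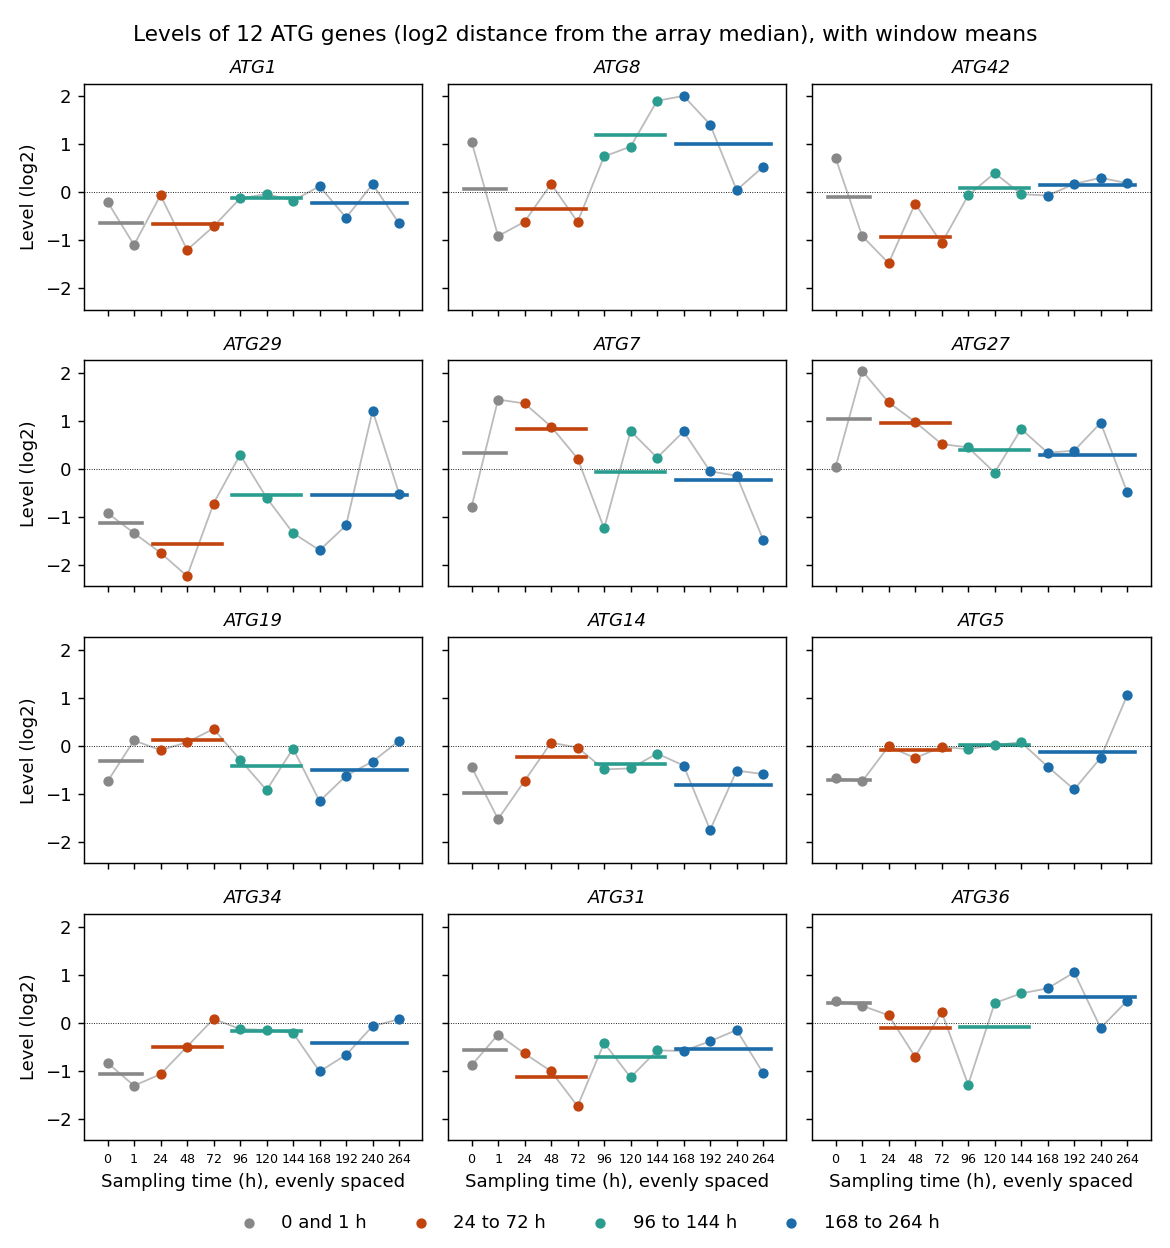
Levels (log2 distance from the array median) of 12 ATG genes on each array against sampling time, with points coloured by window and bars at the window means. ATG8 lies at -0.62 at 72 h, at 2.01 at 168 h and at 0.05 and 0.53 at 240 and 264 h, ATG42 is lowest at 24 h, and ATG29 has 1 high array, 240 h.

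Among the initiation genes, ATG1, which encodes the starting kinase, ranged over 1.37 log2 units, against a median range of 2.12 over the 35 genes. It stood at -0.20 and -1.10 at 0 and 1 h, at -0.06, -1.20 and -0.71 at 24, 48 and 72 h, at -0.13, -0.04 and -0.17 at 96, 120 and 144 h, and at 0.13, -0.53, 0.17 and -0.65 at 168, 192, 240 and 264 h. The windows overlapped, and the late minus active difference of 0.44 (95% interval -0.44 to 1.31; limma adjusted p = 0.640) was 0.16 without 48 h and 0.74 without 24 h.

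ATG29 and ATG31 encode partners of the scaffold protein Atg17. ATG29 was at -0.91 and -1.33 at 0 and 1 h, at -1.74, -2.23 and -0.72 in the active window, at 0.30, -0.59 and -1.33 in the mid window, and at -1.69, -1.17, 1.22 and -0.51 at 168, 192, 240 and 264 h. It was high at 240 h and at 96 h alone, and the windows overlapped. The late minus active difference of 1.02 was 0.44 without 240 h, and the signal was dim at 48, 144 and 168 h. The mid minus active difference was also 1.02 (limma adjusted p = 0.756), from 0.60 to 1.44 with single arrays left out. ATG31 was at -0.89 and -0.24 at 0 and 1 h, at -0.64, -1.01 and -1.74 at 24, 48 and 72 h, at -0.42, -1.14 and -0.57 in the mid window, and at -0.59, -0.38, -0.15 and -1.05 late. Its late minus active difference of 0.59 was 0.28 without 72 h, where the signal was dim.

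ATG17 itself was dim on 7 arrays, from -3.53 to -0.49, and its differences are not read further. ATG11, the scaffold gene of selective autophagy, was highest at 0 and 264 h (0.56 and 0.54) and lowest at 1 and 24 h (-1.12 and -1.14), with a late minus active difference of 0.68, or 0.43 without 24 h. All 5 initiation genes were higher late than active, with a median of 0.59 and 0 past the test, but ATG17 only by under 0.01 and at -0.41 after quantile normalization.

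The lipid kinase subunit genes were ATG14, which directs the kinase to autophagy, and ATG38. ATG14 was at -0.44 and -1.52 at 0 and 1 h, at -0.73, 0.07 and -0.03 at 24, 48 and 72 h, at -0.49, -0.47 and -0.16 in the mid window, and at -0.41, -1.75, -0.51 and -0.58 late. The 1 and 192 h arrays were the low ones and 48 and 72 h the high ones. It had the largest positive difference of any ATG gene from the early to the active window, 0.75 (SE 0.52; limma adjusted p = 1.00). That was 1.30 without the 0 h and 0.21 without the 1 h array. Late minus active it differed by -0.58, and by -0.27 without 192 h, where its signal was dim. ATG38 was level between the windows (late minus active 0.01, 95% interval -1.005 to 1.02) and ran from -1.72 at 192 h, a dim signal, to 0.31 at 264 h.

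Of the 6 genes for membrane supply, 5 were higher late than active, with a median of 0.49 and 0 past the test. ATG9, the gene of the membrane protein of the supply vesicles, was at 0.18 and -1.57 at 0 and 1 h, at 0.36, -0.92 and -0.64 in the active window, at 0.28, 0.60 and 0.24 in the mid window, and at 1.47, 0.45, 0.10 and -0.60 late. It was highest at 168 h and lowest at 1 h. Its late minus active difference was 0.76 with all arrays, 0.38 without 168 h and 1.14 without 24 h. Mid minus active it was 0.78.

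ATG18, which encodes a phosphoinositide-binding partner of Atg2, was highest at 264 h (1.00) and lowest at 72 h (-1.33), and differed by 1.02 late against active (SE 0.47; limma adjusted p = 0.327). ATG2, the lipid transfer protein gene, was at -0.98, 0.00 and 0.45 in the active window and at 0.81, 0.68 and 0.70 in the mid window, with no overlap and a difference of 0.91 (limma adjusted p = 0.687), or 0.50 without 24 h. ATG41, an Atg9 partner gene, differed by 0.51 late against active, but by 0.10 without 24 h and 0.27 after quantile normalization, and was dim at 1 and 24 h.

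ATG27 and ATG23 act in the traffic of Atg9. ATG27 was at 0.05 and 2.05 at 0 and 1 h, at 1.39, 0.99 and 0.52 at 24, 48 and 72 h, at 0.45, -0.07 and 0.84 in the mid window, and at 0.34, 0.39, 0.97 and -0.48 late. It was highest at 1 h and lowest at 264 h. Its late minus active difference of -0.66 was -0.40 without 264 h and -0.34 after quantile normalization. ATG23 differed by less than 0.01 in median-centred values and by -0.29 after quantile normalization.

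Cargo and receptor genes of the selective routes numbered 10, of which 7 were higher and 3 lower late than active, with a median of 0.16 and 0 past the test. ATG32, the receptor gene for the removal of mitochondria, was at 0.82 and -0.06 at 0 and 1 h, at 0.64, 0.04 and 0.01 in the active window, at -0.02, 0.65 and 1.48 at 96, 120 and 144 h, and at 2.02, 1.66, 0.27 and -0.10 at 168, 192, 240 and 264 h. It was thus high from 144 to 192 h, and its active and late windows overlapped. Late minus active it differed by 0.73 (limma adjusted p = 0.549), and by 0.38 without 168 h.

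ATG19, the receptor gene of the Cvt route, was at -0.74 and 0.12 at 0 and 1 h, at -0.09, 0.08 and 0.36 at 24, 48 and 72 h, at -0.28, -0.92 and -0.05 in the mid window, and at -1.15, -0.62, -0.32 and 0.11 late. It was highest at 72 h and lowest at 168 h, and differed by -0.61 late against active, or -0.39 without 168 h. ATG34, the gene of a related receptor, was at -0.83 and -1.31 early, at -1.07, -0.50 and 0.08 in the active window, between -0.21 and -0.13 in the mid window, and at -1.01, -0.67, -0.07 and 0.08 late. From the early to the active window it was higher by 0.58, by 0.34 without 1 h and by 0.29 without 72 h.

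Receptor genes for other organelles were spread. ATG36, for peroxisomes, was at 0.46 and 0.36 at 0 and 1 h and at 0.16, -0.71 and 0.23 at 24, 48 and 72 h, so that its early and active windows did not overlap (difference -0.52, or -0.22 without 48 h). After quantile normalization these windows overlapped. In the mid window ATG36 stood at -1.29, 0.41 and 0.61, and late at 0.72, 1.05, -0.11 and 0.46. Its late minus active difference was 0.64. ATG40, for the endoplasmic reticulum, had the widest range of all 35 genes, 3.48 log2 units, from -2.25 at 1 h, where it was dim, to 1.23 at 264 h. Its mid minus active difference was 0.90 (limma adjusted p = 0.771), from 0.68 to 1.14 with single arrays left out. Its late minus active difference was 0.60, from 0.20 to 0.98 with single arrays left out, and the windows overlapped in both comparisons. ATG39, for the nuclear envelope and endoplasmic reticulum, ran from -1.31 at 1 h to 1.28 at 264 h. ATG45, which in S. cerevisiae encodes a glycogen receptor, had the narrowest range, 0.99.

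The 3 remaining selective genes to name are ATG33, which serves the removal of mitochondria, and ATG20 and ATG21, which serve the Cvt route as a sorting nexin and a phosphoinositide-binding protein. Late minus active they differed by -0.04, -0.47 and 0.06. ATG20 ran from -1.52 at 264 h, a dim signal, to 0.75 at 144 h.

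Among the breakdown genes, ATG42 was at 0.72 and -0.91 at 0 and 1 h, at -1.48, -0.23 and -1.06 at 24, 48 and 72 h, at -0.06, 0.40 and -0.04 in the mid window, and at -0.07, 0.17, 0.30 and 0.19 late. Every mid and late value was above every active value, and the 0 h value was the highest of all. The mid minus active difference was 1.02 (limma adjusted p = 0.687). The late window averaged 0.15 ± 0.16 (n = 4) against -0.92 ± 0.63 (n = 3) in the active window, a difference of 1.07 (SE 0.44, 95% interval 0.14 to 2.01; limma adjusted p = 0.274). From the early to the active window it had the largest negative difference of the ATG genes, -0.83, which was -0.02 without 0 h and -1.64 without 1 h.

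ATG15, the gene of the lipase that opens autophagic bodies in the vacuole, and ATG22, the gene of an amino acid exporter of the vacuole, differed by -0.33 and -0.31 late against active. ATG22 was at 0.99, 1.25 and 1.08 in the active window and at 0.42, 0.87 and 0.96 in the mid window, with no overlap (difference -0.36, or -0.19 without 96 h). After quantile normalization these windows overlapped. ATG26, a sterol glucosyltransferase gene, differed by 0.60 late against active. It was at -0.91, 0.21 and -0.13 in the mid window and at 0.71, 0.97, 0.34 and 0.60 late. The windows did not overlap, with a difference of 0.93 (limma adjusted p = 1.00), or 0.61 without 96 h.

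**Figure D3:**
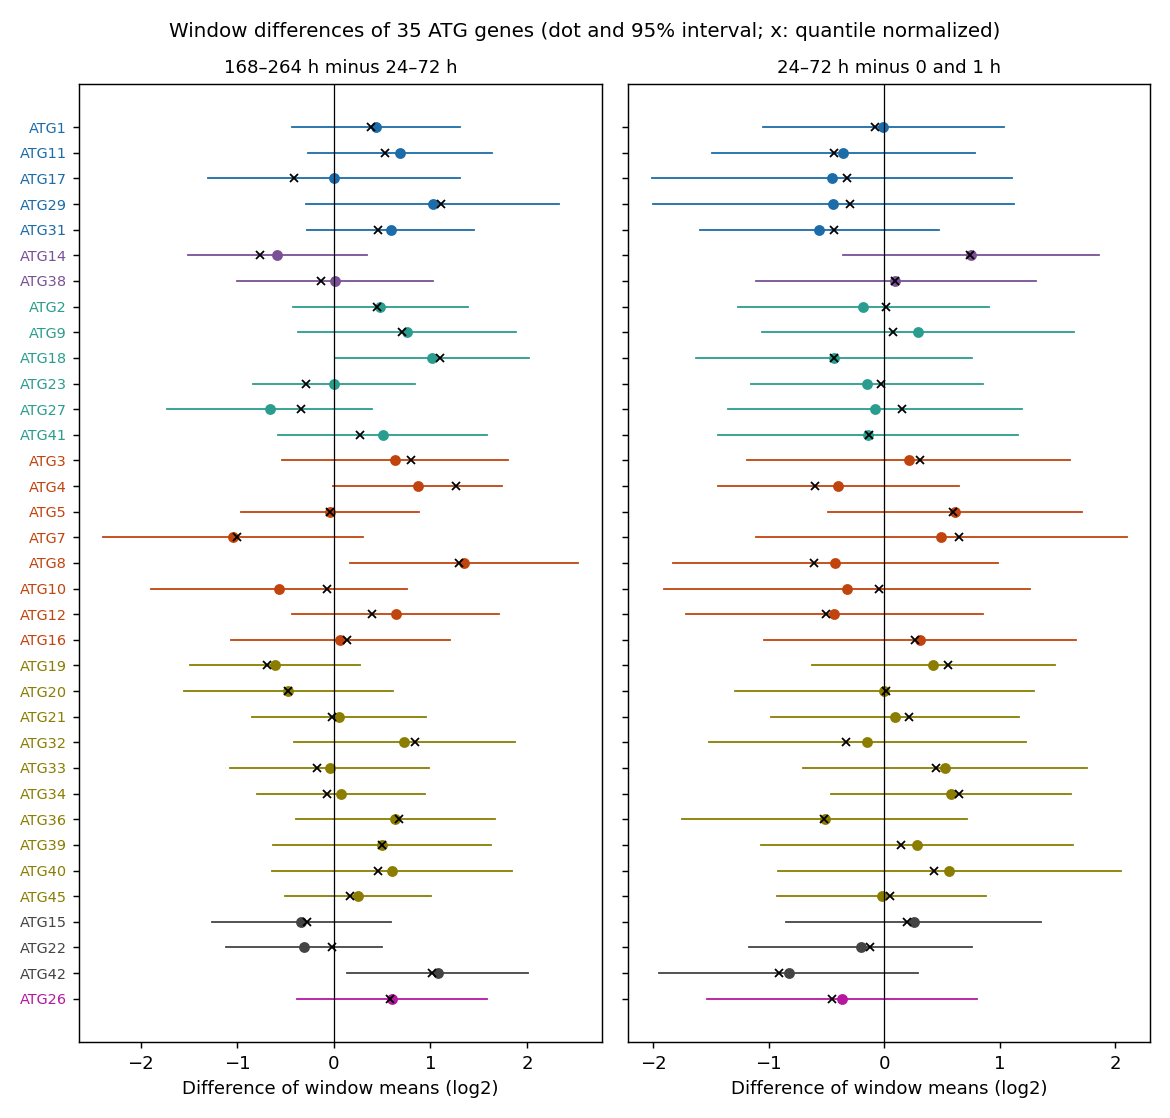
Differences of window means in log2 units for the 35 ATG genes, late minus active on the left and active minus early on the right, with 95% intervals from limma (not adjusted for the number of genes) and crosses at the quantile-normalized differences (colours mark the role, as in the heat map). On the left the intervals of ATG8, ATG18 and ATG42 lie above 0, and on the right every interval spans 0.

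The start of the fermentation is covered by the 0 and 1 h arrays, 1 each, with no replicate check. The 1 h minus 0 h difference was -2.20 log2 units for ATG40, -1.97 for ATG8, -1.75 for ATG9, -1.73 for ATG39, -1.70 for ATG12 and -1.68 for ATG11, while ATG10, ATG7 and ATG27 were 7.06-, 4.71- and 4.02-fold higher. Over 2-fold differences numbered 3 higher and 12 lower of the 35 genes, or 8.57% and 34.3%, against 22.7% and 18.3% of all features. After quantile normalization the numbers were again 3 and 12, of which 3 and 10 were the same genes. ATG14 and ATG38 dropped out, and ATG4 and ATG32 came in. The median of the ATG genes was -0.48 against 0.05 over all features, or -0.30 against -0.02 after quantile normalization. The 1 h array had the widest spread of all, 1.56 against 0.91 log2 units at 0 h. With the arrays scaled to equal spread the median was -0.23 against 0.04, with 16 genes higher and 19 lower, and 3 and 12 over 2-fold, against 19.4% and 15.1% of all features. ATG40 and ATG41 were dim at 1 h, so the sizes of their differences are uncertain.

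Since the early arrays differed this much, early against active comparisons turned on which of them was used. The median difference of the ATG genes from the early to the active window was -0.08, the same as over all features, with 15 genes higher and 20 lower (18 and 17 after quantile normalization). It was 0.18 without 0 h and -0.29 without 1 h. The windows did not overlap for 1 ATG gene that was higher, ATG5, against 6.59% of all features, and for 1 that was lower, ATG36, against 7.11%. After quantile normalization those numbers were 3 and 0, against 8.58% and 7.01% of all features, and the ATG36 windows overlapped. ATG5 was at -0.67 and -0.74 at 0 and 1 h and at -0.01, -0.25 and -0.02 at 24, 48 and 72 h. It lay between -0.07 and 0.08 in the mid window and at -0.43, -0.91, -0.24 and 1.06 late. Its active minus early difference of 0.61 lay between 0.57 and 0.69 with any single array left out. That of ATG8, -0.42, was 0.56 without 0 h and -1.41 without 1 h, and that of ATG1, -0.01, was 0.44 and -0.46.

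From the active to the mid window, 22 ATG genes were higher and 13 lower, with a median of 0.26 against 0.00 over all features (24, 11 and 0.14 after quantile normalization). The windows did not overlap for 4 that were higher, namely ATG2, ATG4, ATG8 and ATG42, or 11.4% against 7.24% of all features, and for ATG22, which was lower, or 2.86% against 9.95%. The number higher was 11 without 72 h and 10 without 96 h, or 31.4% and 28.6%, against 13.5% of all features in both cases. From the mid to the late window 17 were higher and 18 lower, with a median of -0.02 against 0.03 over all features. There 1 gene did not overlap upward, ATG26, against 1.98% of all features, and 0 downward, against 1.24%.

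**Figure D4:**
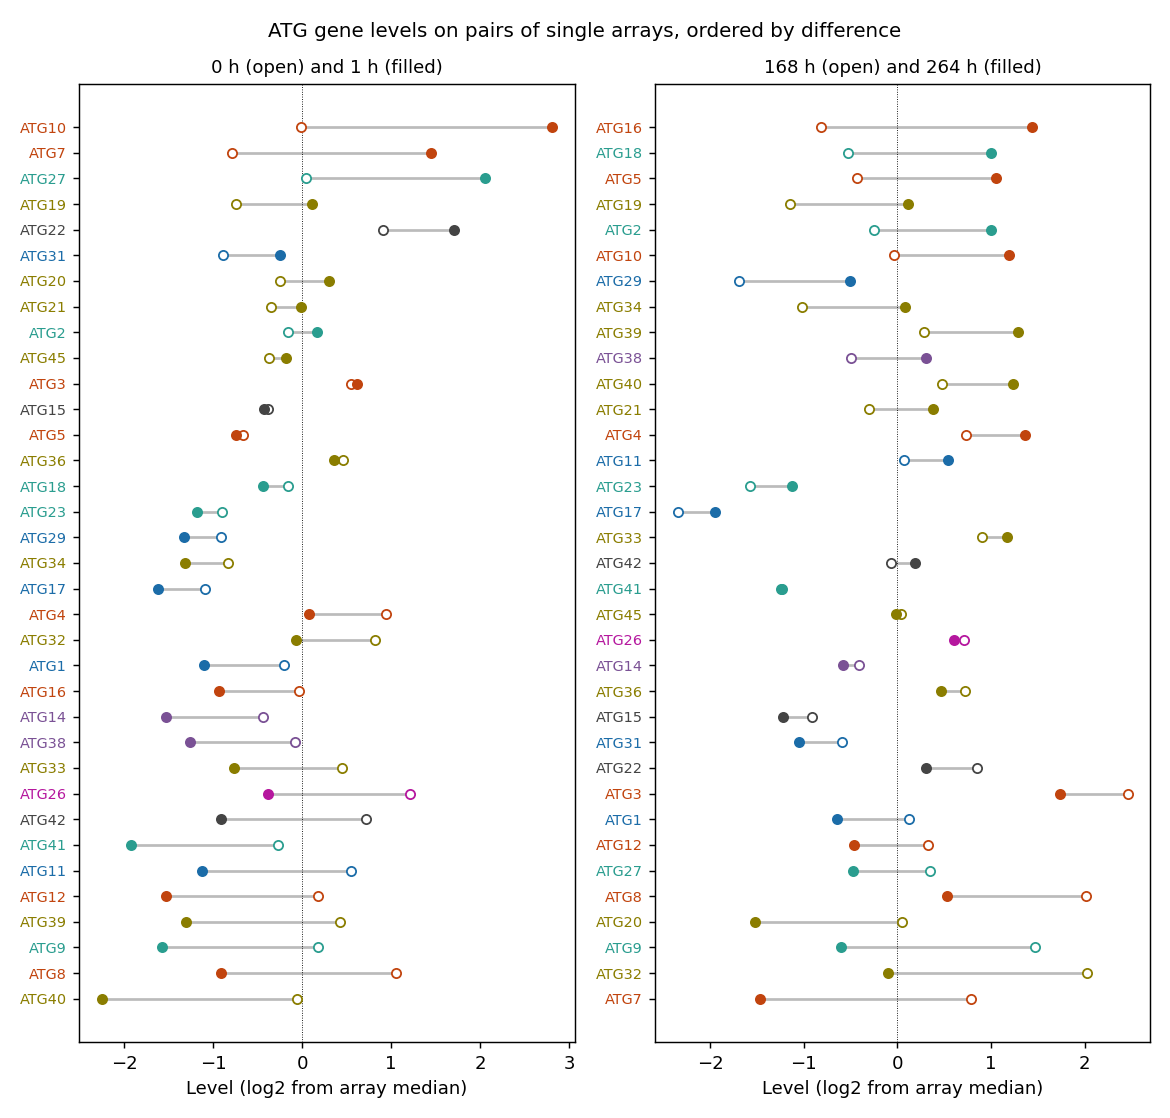
Levels (log2 distance from the array median) of the 35 ATG genes at 0 h (open) and 1 h (filled) on the left and at 168 h (open) and 264 h (filled) on the right, each panel ordered by the difference and coloured by role. ATG8 and ATG9 are lower on the second array in both panels, ATG7 is higher at 1 h and lower at 264 h, and ATG10 is higher on the second array in both.

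The late window itself was not uniform. Between the 168 h and the 264 h array, a pair chosen after the values were seen and with no replicate, 9 ATG genes were over 2-fold higher and 5 over 2-fold lower, or 25.7% and 14.3% against 14.1% and 23.2% of all features. After quantile normalization 11 were higher and 4 lower, against 16.8% of all features each way. The higher ones were ATG16, by 2.26 log2 units, ATG18, by 1.53, ATG5, by 1.49, and ATG2, ATG10, ATG19, ATG29, ATG34 and ATG39, by 1.00 to 1.26. The lower ones were ATG7, at -2.26, ATG32, at -2.12, ATG9, at -2.07, ATG20, at -1.56, and ATG8, at -1.48 (-0.90 after quantile normalization). ATG7 and ATG20 were dim at 264 h and ATG29 at 168 h, so the sizes of their differences are uncertain. With the arrays scaled to equal spread 9 genes were over 2-fold higher and 4 lower, against 13.2% and 19.3% of all features.

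Over the whole course, limma's moderated F test of a spline in hours was passed by 0 of the 35 ATG genes, against 0.0331% of all features. An unadjusted p under 0.05 was reached by 3 ATG genes and by 975 of the 6051 features. The smallest values were those of ATG32 (adjusted p = 0.175), ATG8 (0.184) and ATG16 (0.289). Without the 0 h array 5 ATG genes passed, namely ATG8, ATG32, ATG10, ATG7 and ATG16, with adjusted p from 0.00497 to 0.0325, but 18.4% of all features passed too.

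The genes whose course over the 12 arrays was most like that of ATG8 were ATG32, ATG9 and ATG42, with Pearson correlations of 0.779, 0.719 and 0.679. The least like were ATG19, ATG10 and ATG27, at -0.679, -0.633 and -0.559. These are descriptions over 12 arrays that share their scaling. Over the other 34 ATG genes the median correlation with ATG8 was 0.186, against 0.0404 over all other features. The median over all 595 pairs of ATG genes was 0.0575, and that over pairs of all features was not computed. The 35 genes thus did not all follow a single course. The named genes are the extremes of 34, and the share of all features with correlations as high or as low was not computed.

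Of 47 further genes listed for their part in autophagy or its control, 45 were matched, and 0 passed from the active to the late window, with 28 higher and 17 lower and a median of 0.28. The 14 genes of fusion with the vacuole had a median of 0.34, the 20 regulators of 0.21 and the 4 cargo and adaptor genes of -0.34. MON1, an activator gene of the vacuolar fusion GTPase, differed by 1.54 (limma adjusted p = 0.225). TOR1, a kinase gene of the complex that holds autophagy back, differed by 1.504 (limma adjusted p = 0.302), or by 1.16 after quantile normalization. The mean TOR1 level in the active window was low, at -2.53, so the size of its difference is uncertain. GCN4, the amino acid starvation activator, differed by -1.67 (0.223) and PEP4, the main vacuolar protease gene, by -0.90, or by -0.31 without 240 h and -0.34 after quantile normalization. The GCN4 windows did not overlap, and its difference passed without the 0 h or the 1 h array (limma adjusted p = 0.0489 for both), where 3.82% of all features passed downward, and on uncentred values, where 35.1% did. Over 20 alternatives on centred or normalized values its adjusted p ran from 0.0489 to 0.748, and that of ATG8 from 0.147 to 0.788. VPS30, the gene also called ATG6, differed by -0.46, and SNX4, also called ATG24, by 0.32, and neither passed. Of the 45 genes, the active and late windows did not overlap for 2 that were higher late, or 4.44% against 5.19% of all features. They were GLN3, a regulator, by 1.21 (limma adjusted p = 0.220), and VPS15, of the lipid kinase complex, by 0.98 (limma adjusted p = 0.341). GCN4 was the 1 that was lower, or 2.22% against 7.35% of all features.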

How the data were processed

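The authors deposited a table of linear intensities for 6084 probes on 12 arrays, as whole numbers. How they scanned, scaled or corrected them for background is not given in the sources used here. Of the probes, 5523 had 1 gene symbol in the platform annotation and 561 had none. Averaging the log2 values of probes that share a symbol gave 6051 features. 3 intensities of 0 were treated as missing.

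On the log2 scale, the array median was subtracted from every value. Windows were compared with limma 3.58.1 in R 4.3.3 (1 linear model of all 12 arrays with moderated variances, 8 residual degrees of freedom), two-sided, and the course with its F test of a natural spline with 3 degrees of freedom in hours. P-values were adjusted over all features by Benjamini-Hochberg, with a threshold of 0.05. Precision is limited by the number of arrays. On simulated arrays with the fitted spread, the late against active fit recovered 63% of differences of 2 log2 units and 98% of 4. The spline test recovered 13% and 81% of rises of those sizes over the course. False calls numbered 8 and 2, and smaller differences were not simulated. The simulated errors were independent and had the same spread for a gene on every array, whereas the real arrays differed in spread. The recovered shares hold for that setting only.

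The members, windows and gene lists were chosen with earlier results of these data known. Genes were named by a rule. ATG1, ATG8 and the 3 largest differences each way from the active to the late and from the early to the active window are given on all arrays, and the 2 largest each way among the further listed genes are named. Added after the values were seen were members that differed by at least 0.5 from active to late or 0.75 from active to mid, those whose windows did not overlap, and all-array values for ATG9 and ATG32. GLN3 and VPS15 were also added after the values were seen, as further listed genes whose active and late windows did not overlap. ATG45 was put among the selective genes after the annotation was seen.

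Alternatives were no centring, quantile normalization, equal median absolute deviations, features on all arrays, removal of the dimmest 25%, other variance models, a floor at each array's 5th percentile, 168 h in the mid window, other splines and leaving out each array. No genome or sequence table was used, so no position or sequence is given. Figures were drawn with matplotlib 3.10.9.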

Additional observations from a re-analysis of the deposited data

Results flagged for a closer look

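In the late window, the 1 window with 4 arrays, 2 of the 35 ATG genes had an array far from the other 3, by Dixon's ratio of the gap to the range. ATG14 was at -1.75 at 192 h, with the nearest other array at -0.58 (ratio 0.868). ATG20 was at -1.52 at 264 h, with the nearest at -0.21 (ratio 0.835). Both signals were dim, and chance flags about 1 in 20 groups, so that 2 of 35 is near the chance rate.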

How the results depend on the processing

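The arrays are single, the windows hold different times, and background is unknown, so small differences and dim signals are not resolved. No paired analysis was possible because each time has 1 array. Of the counts and medians under alternatives, 399 kept their value within 1.5 times or 1 SD and 57 moved. That SD, of the ATG median within windows, was 0.26 log2 units, as large as the active to mid median of 0.26. Counts of 0 under both settings were scored as kept. So were values that could hardly change, as when the array left out lay outside the compared windows. The tally is therefore not a measure of stability. As deposited, the median of all features shifts by -2.06 from active to late, 0.99 from early to active, -1.13 from active to mid and -0.94 from mid to late; gene differences are given relative to it. On that scale 8 of the 35 ATG genes passed downward from active to late (against 35.1% of all features) and 25 the spline (against 84.1%), and the active minus early difference of ATG1 was 0.0751, against -0.01. Non-overlapping ATG genes, higher and lower, were then 14 and 0 from early to active (all features 33.0% and 0.132%), 0 higher from active to mid (0.0165%), 0 and 17 from active to late (0% and 71.6%), and 0 higher from mid to late (0%). After quantile normalization they were 3 and 0 from early to active (8.58% and 7.01%) and 0 lower from active to mid (10%). With equal median absolute deviations they were 3 higher from early to active (7.34%), 0 lower from active to mid (10%) and 2 higher from active to late (5.11%). With 168 h in the mid window they were 2 higher from active to mid (5.64%), 3 and 1 from active to late (10.9% and 15.2%), and 1 lower from mid to late (8.78%).

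With single arrays left out, 0 ATG genes passed in any window comparison and 0 to 5 the spline, 5 without 0 h. Non-overlapping genes ran from 1 to 12 higher and 1 to 13 lower from early to active, 4 to 11 and 1 to 5 from active to mid, 1 to 5 and 0 to 3 from active to late, and 1 to 2 and 0 to 2 from mid to late. Over all features the shares ran, in the same order, from 6.59% to 28.9% and 7.11% to 33.0%, 7.24% to 15.3% and 9.93% to 19.1%, 5.19% to 11.1% and 7.35% to 15.2%, and 1.98% to 6.99% and 1.24% to 9.39%. The 12 and 13 came without 0 h and without 1 h, where 23.8% and 27.4% of all features did not overlap that way. The medians ran from -0.29 to 0.18, from 0.20 to 0.27, from 0.10 to 0.44 and from -0.07 to 0.05 in that order. The active minus early difference ran from -0.46 to 0.44 for ATG1 (0.44 without 0 h, 0.26 without 48 h, 0.02 without 72 h) and from -1.41 to 0.56 for ATG8, and the late minus active difference of ATG10 from -1.08 to 0.033 (without 24 h). The causes were not tested.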
